A study of Canis lupus familiaris with 48 samples.

Results

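The genes described here are 179 of the 32704 genes counted in MDCK I cells, those whose mean level under added NaCl, under added raffinose and under added urea was in each case at most 50% of the control mean. MDCK I is an established line of canine kidney epithelial cells. The members were chosen on these same measurements. A gene needed a control mean of at least 2 CPM (reads of the gene per 1000000 counted reads of the library), a ratio to control of at most 0.5 after each solute on group means with 0.1 CPM added, and a NaCl to raffinose ratio between 0.625 and 1.6. The rule left out ENSCAFG00000006902, ENSCAFG00000005437 and the mitochondrial genome, and a percent of control below carries the same 0.1 CPM. The levels against control, and NaCl against raffinose, are therefore given as a description, with no test.

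The cells of all 4 groups were grown for 144 h, and the groups differed in the medium of the last 24 h. The control group stayed in regular medium (300 mOsm), and the other groups received 200 mOsm of NaCl, raffinose or urea on top of it (500 mOsm in all). Each group held 12 libraries of polyadenylated RNA, 1 from each of the same 12 cell passages, numbered from 1 to 19. The replicates were passages of 1 cell line, so p-values measure the spread between these passages only, and in bulk RNA fewer cells of a kind and less RNA per cell cannot be told apart.

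Hyperosmotic medium draws water out of cells when its solute stays outside, as NaCl and raffinose largely do. Urea crosses most membranes and raises osmolality with little lasting loss of cell volume. Kidney cells of the medulla meet both salt and urea at high concentration, and they adjust to a hypertonic medium by changing ion transport, gene transcription and their content of organic osmolytes. The genes carry Ensembl identifiers that could not be paired with symbols, so members are described by identifier, position and level, without a function, and the label of the cell line was not checked against epithelial markers.

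Depth per library lay between 3.92 and 16.2 megareads (M). Its median was 10.2 M in control, 11.9 M in NaCl, 10.1 M in raffinose and 10.3 M in urea. Of 4 genes that earlier results of these data gave as induced by NaCl and raffinose, the summed level was 18.6 CPM in the control library of passage 4, against at most 13.2 CPM in the other control libraries. It was 28.6 CPM in the urea library of passage 5, against at most 6.13 CPM in the other urea libraries and at least 1662 CPM after NaCl or raffinose. Without the control library of passage 4 the rule chose 181 genes, and without the urea library of passage 5 it chose 188, of which 178 were among the 179.

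Of 11324 genes at 2 CPM or more in control, 1241 were at or below 50% of control with NaCl, 1771 with raffinose and 549 with urea. The 3 conditions together were met by 190 genes, of which 2 were named for omission and 9 lay outside the NaCl to raffinose range. All 179 members passed the filter on low counts, which kept 12654 genes for testing. The members just inside the threshold were ENSCAFG00000005695 on chromosome 2, whose largest ratio was 0.499 (raffinose), and ENSCAFG00000005054 on chromosome 19, at 0.498 (urea). The genes just outside were ENSCAFG00000037768, at 0.5004, and ENSCAFG00000010807, at 0.502.

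The members were genes of low to middling level. Their median control level was 13.0 CPM, with a range from 2.12 to 1364 CPM, beside 29.7 CPM over all tested genes. Scaled by length, the median was 6.89 RPKM (CPM per kilobase of exon) in control, beside 13.9 RPKM over all tested genes. Between 2 and 5 CPM lay 35 members, between 5 and 10 CPM 36, between 10 and 50 CPM 77, between 50 and 100 CPM 20, and at 100 CPM or more 11. Their spread between passages is given by the edgeR fit. The median biological coefficient of variation was 27.7% for members and 15.3% for all tested genes.

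Added together, the members took 0.770% ± 0.0924 (SD, n = 12) of all counted reads in control. Their share was 0.233% ± 0.0323 with NaCl, 0.206% ± 0.0318 with raffinose and 0.264% ± 0.0452 with urea (SD, n = 12 each). The lowest control library was at 0.620% and the highest treated library at 0.370%, so treated libraries did not overlap control in this sum. The choice of members fixes the lower mean share after each solute, so this separation is no independent result. Over members, the median level was 33.5% of control with NaCl (range 2.40% to 49.6%), 30.3% with raffinose (1.82% to 49.9%) and 34.3% with urea (2.94% to 49.8%). The same medians over all tested genes were 87.6%, 84.4% and 96.4%.

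**Figure D1:**
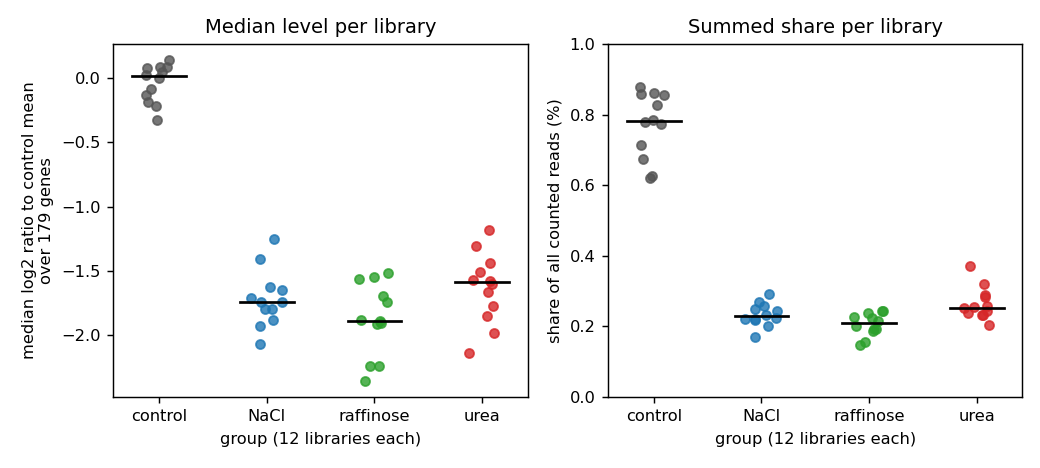
Median over the 179 members of the log2 ratio of each library's level to the control mean (left) and the members' summed share of counted reads in percent (right), by group, with a point for each of the 12 libraries and a bar at the median. On the left, control libraries lie between -0.33 and 0.14, and the treated libraries between -2.35 and -1.18.

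Raffinose gave the lowest level for 95 members, urea for 65 and NaCl for 19. The mean level in CPM was lower with raffinose than with NaCl for 141 of the 179. On library totals all tested genes also lay lower after raffinose (median log2 difference from control -0.25) than after NaCl (-0.19). In the edgeR fit, on TMM-scaled counts, the median log2 difference of NaCl from raffinose over all 179 was 0.10, beside 0.00 over all tested genes. A level of at most 25% of control was seen for 57 members with NaCl, 65 with raffinose and 49 with urea, and for 18 with all 3. At 10% or below there were 10 with NaCl, 11 with raffinose and 4 with urea. Those 4 were ENSCAFG00000013961, ENSCAFG00000002054, ENSCAFG00000002323 and ENSCAFG00000023282, of which the first and the last were at or below 10% after all 3 solutes (ENSCAFG00000002054 was chosen after its values were seen).

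The lower levels were seen across passages. All 12 NaCl libraries lay below all 12 control libraries for 120 members, against 16.3% of all tested genes. The same held for 129 members after raffinose, against 20.3%, and for 120 after urea, against 5.80%. All 36 treated libraries lay below all 12 controls for 87 members, against 1.84% of tested genes. Since the rule used these contrasts, the counts only describe the spread behind the group means. Compared with the control of the same passage, 162 members were lower in all 36 treated libraries, and the fewest for any member was 34 of 36. The rule used these contrasts too, and no share over all tested genes is given for this count.

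The highest level in control belonged to ENSCAFG00000010090 (CanFam3.1, chromosome 18, 46293985 to 46304805, minus strand). It ranged over control libraries from 458 to 2505 CPM with a median of 1321 CPM. The lowest, median and highest libraries were at 100, 303 and 574 CPM after NaCl, at 99.8, 257 and 471 CPM after raffinose, and at 192, 427 and 899 CPM after urea. The highest treated libraries thus reached into the control range, while the means stood at 22.6%, 19.6% and 34.6% of control. It was lower after raffinose than after urea by a log2 difference of -0.68 ± 0.27 (SE), with an adjusted p of 0.0212 (edgeR quasi-likelihood test, Benjamini-Hochberg adjustment over 12654 genes, used for every adjusted p unless another tool is named). The NaCl to urea difference was -0.53 ± 0.27 (adjusted p = 0.0744). This fit did not pair libraries by passage. In all 12 passages both the NaCl and the raffinose library lay below the urea library.

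The gene next in level, ENSCAFG00000005019 (chromosome 2, 28067975 to 28088199, minus strand), varied less. Its control libraries lay between 420 and 686 CPM, with a median of 528 CPM. The treated medians were 149 CPM with NaCl (92.8 to 183), 109 CPM with raffinose (89.8 to 153) and 183 CPM with urea (101 to 253), and no treated library reached the control range. It was lower after raffinose than after urea by -0.47 ± 0.11 on the log2 scale (adjusted p = 0.000151), in all 12 passages. After NaCl it was lower than after urea by -0.23 ± 0.11 (adjusted p = 0.0488), in 10 of 12.

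The lowest ratios belonged to ENSCAFG00000013961 (chromosome 34, 21766678 to 21985146, plus strand). Control libraries gave 3.17 to 16.6 CPM with a median of 9.28 CPM, from 1234 reads in all. The 12 libraries of a group together held 17 reads with NaCl, 9 with raffinose and 20 with urea, and 3, 7 and 1 of those libraries had no read. No treated library was above 0.456 CPM, and at these counts the solutes could not be ranked: NaCl to urea -0.27 ± 0.58 and raffinose to urea -0.92 ± 0.66 (adjusted p = 0.682 and 0.206). ENSCAFG00000023282 on chromosome 15 followed, with a control median of 19.6 CPM (11.7 to 40.9) and treated medians of 1.16 CPM (0.389 to 2.83) after NaCl, 1.08 CPM (0.329 to 2.71) after raffinose and 1.62 CPM (0.513 to 4.16) after urea.

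The rule bounded each solute against control but did not use the ratio of urea to the other solutes directly, and this ratio was tested. Of 179 members, 89 differed between NaCl and urea (49.7%), against 72.6% of all tested genes. Higher after NaCl were 47 members (background 35.7%) and lower 42 (background 36.9%). Between raffinose and urea 97 members differed, against 76.0% of tested genes: 41 were higher after raffinose (background 37.6%) and 56 lower (background 38.4%). Both shares of members lay below the background, and that difference was not tested. The background includes genes of opposite responses to urea and the other solutes, which the rule left out. The lower shares are therefore no independent result. Members also had a lower median control level (13.0 beside 29.7 CPM) and a higher median biological coefficient of variation (27.7% beside 15.3%). Without the control library of passage 4 the counts were 89 and 96, and without the urea library of passage 5 they were 88 and 96. No background is given for these fits.

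The direction of these calls depended on the scaling. With library totals in place of TMM factors, 38 members were higher (background 30%) and 55 lower (42.5%) after NaCl than after urea. After raffinose 28 were higher (background 29.8%) and 69 lower (47%). The median log2 difference of all tested genes moved from 0.00 to -0.10 for NaCl against urea, and from -0.01 to -0.17 for raffinose against urea, so a split of calls between directions is relative to that shift. With passage as a block, 106 members were called in either direction for NaCl against urea (background 77.8%) and 106 for raffinose against urea (background 80.4%).

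Calls of both comparisons together placed 40 members lower than urea after both NaCl and raffinose (background 33.9%), and 33 higher after both (background 32.9%). No member was higher than urea after 1 of these solutes and lower after the other (background 0.111%), and 66 were called in neither comparison (background 18.4%). The rule kept the NaCl and raffinose levels of a member within a set range of each other. That range limits opposite calls and favours calls in the same direction. The absence of opposite calls and the agreement between the comparisons are therefore no independent result, and the background was not chosen by this range. The 40 had median levels of 17.7% of control with NaCl, 14.9% with raffinose and 39.3% with urea. The 33 had 38.4%, 35.9% and 19.6%. The 66 without a call stood at 34.8%, 33.7% and 37.7%. These medians describe groups formed from the same calls.

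**Figure D2:**
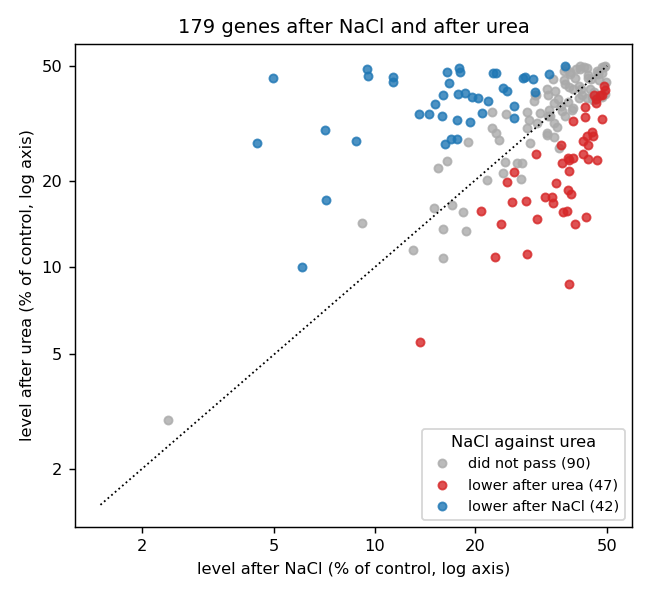
Level after NaCl and after urea as a percent of control (log axes) for the 179 members, with NaCl on the horizontal and urea on the vertical axis and a dotted line of equal levels. Colours mark the 47 members called lower after urea and the 42 called lower after NaCl, and 90 members in grey did not pass.

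Called differences of at least 2-fold were seen for 15 members higher (background 11.5%) and 21 lower (background 8.07%) after NaCl than after urea. After raffinose there were 14 higher (background 13.5%) and 27 lower (background 10.3%). All NaCl libraries were above all urea libraries for 1 member (background 11.3%) and below them for 6 (background 13.5%). All raffinose libraries were above for 1 (background 11.0%) and below for 8 (background 16.9%). The background of these counts includes genes of opposite responses, which the rule left out. The single member above urea in both comparisons was ENSCAFG00000005564 on chromosome 21, chosen after its values were seen, at 19.9 to 37.4 CPM after NaCl and 20.3 to 33.6 CPM after raffinose, against 9.94 to 17.7 CPM after urea.

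The widest gap below urea was that of ENSCAFG00000012381 (chromosome 17, 60126745 to 60134605, plus strand), whose exons overlap 2 other genes, so part of its reads may belong to them. Its libraries ran from 15.9 to 28.98 CPM in control (median 23.7), from 0.112 to 1.80 CPM after NaCl (median 0.965), from 0.186 to 1.82 CPM after raffinose (median 0.479) and from 4.83 to 17.7 CPM after urea (median 9.004). NaCl and raffinose libraries lay apart from urea libraries in every passage. The log2 difference from urea was -3.23 ± 0.22 for NaCl (adjusted p = 1.94e-18) and -3.95 ± 0.25 for raffinose (adjusted p = 3.45e-20).

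ENSCAFG00000018334 (chromosome 4, 59849028 to 59905807, plus strand) was the other member named for raffinose. Control libraries lay between 59.3 and 112 CPM (median 82.0), NaCl libraries between 1.45 and 7.11 CPM (median 3.51), raffinose libraries between 0.928 and 7.88 CPM (median 2.71) and urea libraries between 6.38 and 47.5 CPM (median 22.9). The ranges touched, but in each passage the urea library was the highest of the 3 treated ones. The difference from urea was -2.69 ± 0.28 for raffinose (adjusted p = 1.59e-12) and -2.56 ± 0.27 for NaCl (adjusted p = 3.34e-12).

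For NaCl the other was ENSCAFG00000013763 (chromosome 20), a gene of low level, with a control median of 2.29 CPM (0.292 to 4.06). It had no read in 6 of 12 libraries after NaCl and in 6 of 12 after raffinose, with 10 reads per group, and 69 reads after urea, with a median of 0.447 CPM (0.0721 to 1.79). The NaCl to urea difference was -2.69 ± 0.52 (adjusted p = 1.04e-05), lower after NaCl in 11 of 12 passages. Counts this low leave the size of the difference imprecise.

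The widest gap in the other direction was that of ENSCAFG00000002323 (chromosome 10, 43931061 to 44071307, plus strand). Control libraries gave 14.8 to 27.8 CPM (median 20.3), NaCl libraries 1.92 to 11.6 CPM (median 8.72), raffinose libraries 2.55 to 9.77 CPM (median 7.63) and urea libraries 0.615 to 3.13 CPM (median 1.47). Ranges overlapped slightly, while NaCl and raffinose stood above urea in all 12 passages. The difference from urea was 2.31 ± 0.25 for NaCl (adjusted p = 8.55e-12) and 2.22 ± 0.25 for raffinose (adjusted p = 3.23e-11).

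ENSCAFG00000000885 (chromosome 13) had the same order of groups at a lower level, with medians of 6.79 CPM in control (4.92 to 14.3), 2.82 CPM after NaCl (1.33 to 6.51), 2.33 CPM after raffinose (1.503 to 4.85) and 0.918 CPM after urea (0.410 to 2.24). NaCl was above urea in all 12 passages, by 1.69 ± 0.26 (adjusted p = 8.68e-08). ENSCAFG00000029121 (chromosome 9), at a control median of 2.52 CPM (1.48 to 5.60), was the other member named for raffinose, with a median of 1.21 CPM (0.451 to 1.63), against 0.326 CPM (0 to 0.983) after urea. Its raffinose to urea difference was 1.77 ± 0.30 (adjusted p = 7.59e-07), with raffinose higher in 12 of 12 passages.

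**Figure D3:**
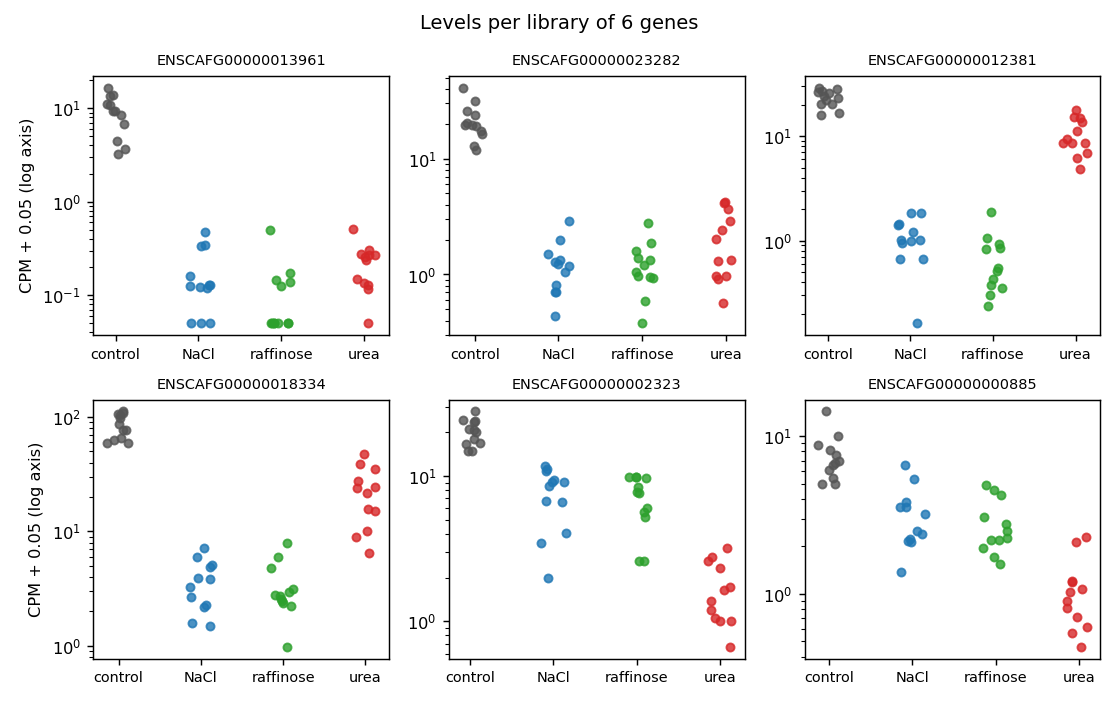
Level of 6 named members in each of the 48 libraries, on a log axis of CPM with 0.05 added, by group. ENSCAFG00000012381 keeps its urea libraries (4.83 to 17.7 CPM) apart from NaCl and raffinose, while ENSCAFG00000002323 is lowest after urea (0.615 to 3.13 CPM).

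Passage was the other measure the rule did not use, since every group holds the same 12 passages. With 1 slope for all groups, 42 members fell with passage (background 8.20%) and 0 rose (background 7.99%). Slopes were below 0 for 139 of 179 members (77.7%), beside 49.1% of tested genes, and the median slope was -0.13 log2 per 10 passages, beside 0.00. The fit treats the 4 libraries of a passage as independent, and the size of the fall depended on how they were joined.

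With 12 samples in place of 48 libraries no member passed the adjusted threshold. When the counts of a passage were summed (edgeR), 98 slopes were below 0 (54.7%), beside 48% of tested genes, and the median slope was -0.02, beside 0.01. At an unadjusted p under 0.05, 26 members had a slope below 0 (background 6.33%) and 3 above (background 6.40%), while 0.0632% of tested genes passed the adjusted threshold. When log2 CPM was averaged over a passage (limma, chosen after seeing the data), 140 slopes were below 0, beside 50% of tested genes, with a median of -0.16. At an unadjusted p under 0.05, 43 members had a slope below 0 (background 6.86%) and 1 above (background 5.92%), while 0.0079% of tested genes fell at the adjusted threshold.

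The number of calls also turned on single passages. Without passage 1, 18 members fell (background 3.97%), of which 17 were among the 42, and 140 slopes were below 0. Without passage 16, 65 fell (background 11.1%). Without passages 1 and 19, 13 fell (background 3.15%). Within groups, the median slope over members was -0.02 in control, with 94 of 179 below 0, and -0.19 after NaCl (133), -0.17 after raffinose (138) and -0.29 after urea (148). Slopes were not shown to differ between groups: the solute by passage test called 0 members and 0 of 12654 genes with edgeR and 0 members with DESeq2, and at an unadjusted p under 0.05 it held for 10 members and for 3.49% of tested genes (edgeR).

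The steepest slope was that of ENSCAFG00000002067 (chromosome 1, 92898274 to 92978260), at -1.06 ± 0.19 (adjusted p = 9.35e-05). It rested on passage 1, where the level was 12.9 CPM in control and 11.0 CPM after urea, the highest of each group, whose medians were 5.06 and 1.85 CPM. Without that passage the slope was -0.28 (adjusted p = 0.343). ENSCAFG00000013672 (chromosome 30), with a control median of 5.19 CPM (1.88 to 14.3), had a slope of -0.88 ± 0.17 (adjusted p = 0.000329) and of -0.59 without passage 1 (adjusted p = 0.0664).

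The shallowest called slopes were also falls. ENSCAFG00000020247 (chromosome 5), at a control median of 89.3 CPM (70.1 to 105) and treated medians from 38.5 to 42.6 CPM, fell by 0.14 ± 0.04 (adjusted p = 0.0195). ENSCAFG00000031803 (chromosome 13), at 390 CPM in control (296 to 482), fell by 0.21 ± 0.07 (adjusted p = 0.0423). Without passage 1 neither slope passed (adjusted p = 0.158 and 0.22), and without passage 17 neither did (adjusted p = 0.0897 and 0.171). Without passages 1 and 19 the slopes were -0.14 and -0.05 (adjusted p = 0.157 and 0.802). The slope of ENSCAFG00000031803 also did not pass with library totals in place of TMM factors (adjusted p = 0.067), nor without some other single passages.

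Levels of members were compared from library to library. After group means were removed, the median correlation between pairs of the 108 members at 5 CPM or more was 0.26, and 84.2% of pairs were above 0. Over 10044 other genes of that level the median was 0.03, and 53.7% were above 0. All values come from the same 48 libraries and share their depth and passage, so the correlations are a description. The member median was highest at passage 5 in control (log2 0.14), NaCl (-1.25) and urea (-1.18), and lowest at passage 17 in NaCl (-2.07) and raffinose (-2.35).

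**Figure D4:**
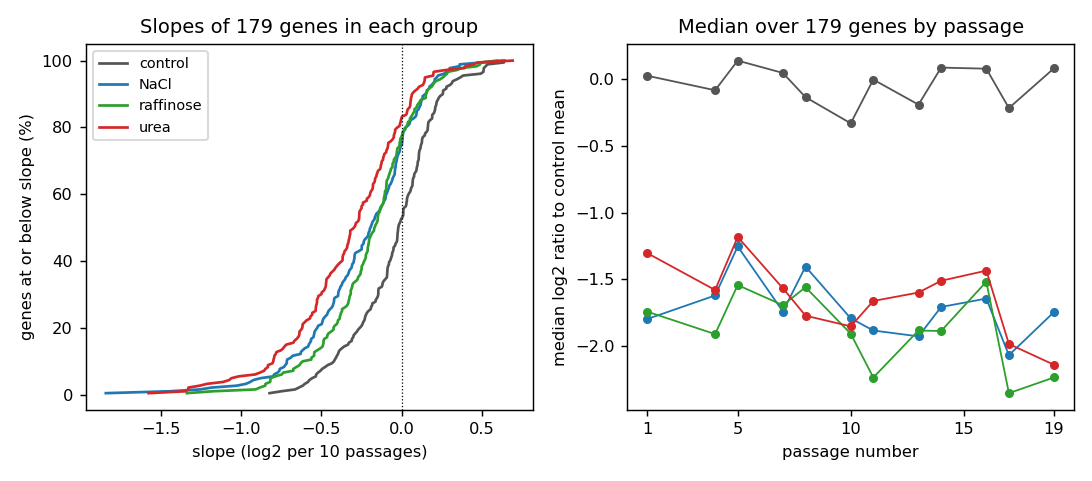
Left, cumulative share of the 179 members by slope with passage (log2 per 10 passages), for each group. Right, median log2 ratio of the members to the control mean by passage number and group: the control line stays between -0.33 and 0.14, and passage 5 is high in control, NaCl and urea.

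In structure the members gave values near those of all tested genes. The median exonic length was 2304 bases, beside 2293, the median span 18.1 kb, beside 19.7 kb, and the median number of exon blocks 9 in both. A single exon block was annotated for 12 members (6.70%), beside 6.89% of tested genes, and the exons of 19 members (10.6%) overlapped another gene, beside 11.4%. Members lay on 38 chromosomes, with at most 11 on any of them (chromosomes 1 and 5).

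Some members were neighbours on the genome. In the order of tested genes, 19 members (10.6%) stood beside another member, in 8 groups, while 328 of 12475 other tested genes (2.63%) stood beside one. Adjacent or not, 60 members had the start of another member within 1 Mb. No test was made of this. Reads of overlapping genes cannot be told apart where strand is not recorded, as for ENSCAFG00000007111 and ENSCAFG00000007124 on chromosome 1, which overlap on opposite strands.

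The largest group of adjacent members, 4 genes, lay on chromosome 15. ENSCAFG00000004033 (13480574 to 13486579) had a mean of 128 CPM in control and of 22.6, 20.1 and 41.5 CPM after NaCl, raffinose and urea. ENSCAFG00000023282 (13604130 to 13623797) and ENSCAFG00000025004 (13638745 to 13657531) each had 12 exon blocks, with 2359 and 2367 exonic bases. Whether they share sequence, which would make the split of reads between them uncertain, was not tested.

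ENSCAFG00000025004 had means of 57.1 CPM in control and 4.93, 3.78 and 15.6 CPM after the solutes in that order. ENSCAFG00000004169 (13663448 to 13675044) had 4.83 CPM in control and 0.777, 0.630 and 1.87 CPM. The next tested gene, ENSCAFG00000004097 (13675916 to 13694493), is no member and differed by solute. Its median was 1.96 CPM in control (0.583 to 4.06), 84.6 CPM after NaCl (43.4 to 169), 61.5 CPM after raffinose (53.2 to 137) and 0.112 CPM after urea (0 to 2.08). It rose by 5.71 ± 0.27 on the log2 scale after NaCl (adjusted p = 6.83e-25) and by 5.53 ± 0.27 after raffinose (adjusted p = 1.38e-24). It fell by 2.55 ± 0.49 after urea (adjusted p = 1.63e-05), and by 3.45 ± 0.52 without the urea library of passage 5 (adjusted p = 2.25e-07). On the other side of the members, ENSCAFG00000004031 had log2 differences from control of -0.82, -0.90 and -0.20 after NaCl, raffinose and urea, and ENSCAFG00000004030 of -0.68, -0.91 and -0.69.

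On chromosome 12, 3 adjacent members spanned 95.5 kb: ENSCAFG00000002230, ENSCAFG00000024271 and ENSCAFG00000024066. Their control means were 13.2, 27.1 and 47.9 CPM. After urea they were at 1.79, 5.91 and 14.1 CPM, after NaCl at 3.1, 4.13 and 21.5 CPM, and after raffinose at 2.02, 2.86 and 22.6 CPM. The tested gene on one side, ENSCAFG00000002255, had log2 differences from control of 1.08 after NaCl, 1.19 after raffinose and 0.18 after urea. The gene on the other side, ENSCAFG00000002220, had 0.01, -0.30 and 0.26.

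On chromosome 31 the adjacent pair ENSCAFG00000010190 and ENSCAFG00000032158 lay within 36.2 kb, at control means of 496 and 6.69 CPM. ENSCAFG00000010190 had means of 121, 96.5 and 106 CPM after NaCl, raffinose and urea, and ENSCAFG00000032158 of 2.39, 1.79 and 1.46 CPM. On chromosome 18, 4 members with starts at most 500 kb apart lay between 46072164 and 46898031, among 15 tested genes, and included ENSCAFG00000010090, the member of highest level.

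**Figure D5:**
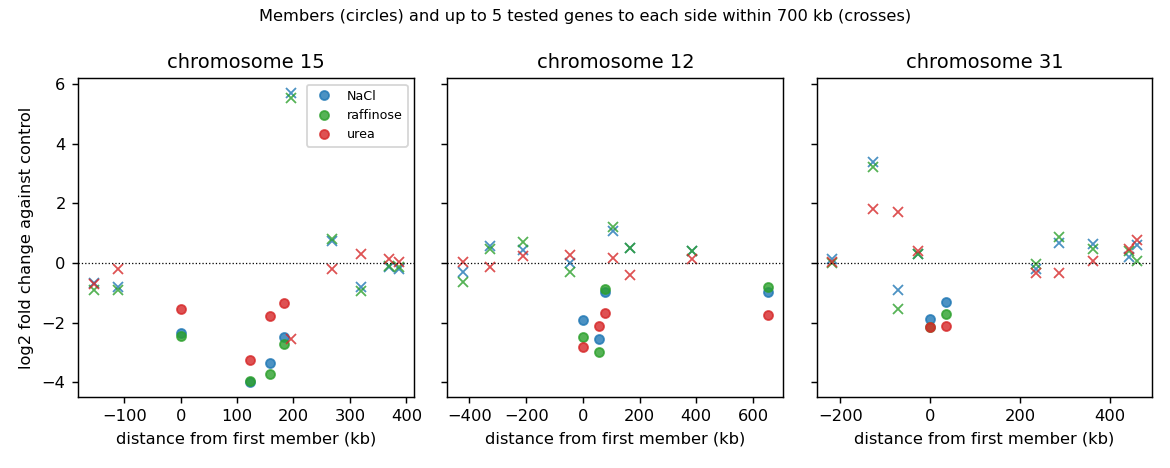
Log2 fold change against control by distance (kb) from the first member, in each solute, on chromosomes 15, 12 and 31. Shown are the adjacent members and up to 5 tested genes on each side within 700 kb. Circles are members and crosses other genes. The circle at 653 kb on chromosome 12 is ENSCAFG00000002288, a member not adjacent to the others. Members lie below 0 for every solute, and the chromosome 15 neighbour at 5.71 after NaCl and -2.55 after urea is a cross.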

How the data were processed

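Single-read libraries of polyadenylated RNA were made with the TruSeq kit, per the labels' protocols. The authors deposited raw read counts per gene for 48 libraries. HISAT2 2.0.5, CASAVA and featureCounts 1.5.1 are named in the submitters' processing notes. Exons of the Ensembl 87 annotation of CanFam3.1 were counted without strand, per the file headers. The members and lists were chosen with earlier results of these data known. Levels are CPM by column totals. Tests were run on the counts by edgeR 4.0.16 under R 4.3.3 (TMM, filterByExpr, glmQLFTest over all 48 libraries, Benjamini-Hochberg adjustment, threshold 0.05), and DESeq2 1.42.0 and limma 3.58.1 gave alternatives. SE is the log2 fold change divided by the square root of F.

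The rule for named members took the 2 highest control levels, the 2 lowest mean log2 ratios, the 2 highest and 2 lowest called differences from urea and slopes with passage, the genes nearest the threshold, and at most 3 groups of adjacent members. On simulated counts for 12654 genes, 99.5% of 200 genes changed by 1 on the log2 scale were recovered for NaCl against urea, with 15 false calls. The simulated libraries were independent, and every gene had the same spread, close to the common 17.0% of these data. Members had a median biological coefficient of variation of 27.7%, so the share recovered does not carry over to them. None of the identifiers (0 of 32704) matched the table of names, which is of assembly UU_Cfam_GSD_1.0, so lists and markers by symbol were not applied and no sequence is shown. The columns of passage 10 carry an added number of unstated meaning and were matched to that passage. A gene at 1 CPM had 3.92 to 16.2 reads, and a count of 0 allows up to 3 reads, counting error only. Same-passage libraries of different groups deviated together (72 pairs, mean correlation 0.33, range -0.12 to 0.73, 66 over 0.1), and the labels give the passage. No library pair of a group was within sampling noise (lowest chi-square per gene 4.96).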

Additional observations from a re-analysis of the deposited data

How the results depend on the processing

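Of 317 counts and medians under an alternative, 298 kept within 1.5 times of the reported value or its spread, and 19 did not. Of 269 values of named genes, 243 kept direction and side of the threshold, 26 lost the call and 0 reversed. The 26 were all slopes with passage. With a mean of at least 5 CPM, 108 members were tested in place of 179. Of these, 47 differed between NaCl and urea (23 higher, 24 lower) and 61 between raffinose and urea (24 higher, 37 lower). No background is given for this filter. Leaving out 1 passage at a time gave 18 to 65 members called for passage, with 0 to 1 rising and 18 to 65 falling. Without passages 1 and 19 there were 13, all falling. With counts summed over a passage, and with mean log2 CPM over a passage (limma, chosen after seeing the data), there were 0, all from 12 samples. With the replicate block, 30 genes had a ratio of at most 0.5 in every same-passage pair, a stricter rule, and 106 members were called in each comparison with urea (89 and 97 without it). On TMM levels 131 genes met the rule, all among the 179, and on group medians 181, of which 160 were. The 35 members under 5 CPM in control rest on the fewest reads.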
